A study of Arabidopsis thaliana with 6 samples.

Results

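A small set of Arabidopsis thaliana transcripts stood highest after 2 days in a cytokinin-rich liquid medium and read lower again at days 5 and 9. The set held 49 of the 22746 probe sets on the ATH1 array that are not controls (0.215%). Its members were chosen by their intensities on 4 arrays: values below 24.7 were raised to that floor, and the day 2 array then had to read at least 1.8 times callus and at least 1.8 times the high medium arrays of days 5 and 9. Of all probe sets, 53 met that ratio (0.233%). Genes left out by name account for 4 of them, AT5G26330, AT1G79620, C3H14 and AT2G04850, and the other 3 genes left out, AT3G27200, ARR15 and AT4G27435, did not reach the ratio. The annotation used here pairs 18 members with 1 gene each and leaves 31 unnamed, and these 31 are given by probe set only.

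The study, titled for the trans-differentiation of cultured cells, used ecotype Ler and read each of 6 conditions on 1 array. The cultures in high differentiating medium were taken at days 2, 5 and 9, and this medium contained 0.2% sucrose, 4% mannitol, auxins (2,4-D, NAA and IAA) at 0.2 mg/l and the cytokinin benzyladenine (BA) at 1 mg/l. The cultures in low differentiating medium were taken at days 5 and 9, with sucrose and mannitol unchanged, 2,4-D at 0.5 mg/l and the cytokinin kinetin at 1.5 µg/l, and all liquid cultures were shaken at 105 rpm and 22 °C. The callus of day 0 came from leaves of 14 to 17 day old seedlings kept for 2 weeks in darkness at 22 °C on 2.0% glucose, 0.5 mg/l 2,4-D and 0.05 mg/l kinetin, and callus made in this way started every liquid culture. No low medium culture was read at day 2, so an effect of the high medium and an effect of the move into liquid cannot be told apart at that time. The labels call the material cell culture and give no cell type, and nothing says that the 6 arrays came from callus of 1 batch.

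In cultured plant cells the balance of auxin and cytokinin steers what a cell becomes. Together they can drive division, the formation of shoots or roots, or the making of tracheary elements, the water-conducting cells of xylem, which lay down a patterned secondary wall and then die. Cytokinin is sensed by membrane histidine kinases that pass phosphate on to response regulators in the nucleus, and some of the genes that respond first do so only briefly. Wall enzymes, structural wall proteins and small secreted proteins are made as cells divide, expand or change fate.

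Across the members, the median intensity was 36.1 in callus, 97.1 at day 2, 44.1 at day 5 and 35.3 at day 9 in high medium. In low medium it was 30.7 at day 5 and 28.3 at day 9. At day 2 the members ran from 44.5 to 2095, with 26 below 100, 15 from 100 up to 300 and 8 at 300 or more. At that time 23 members (46.9%) reached 100, against 29.7% of all probe sets, whose median was 39.8, and AT2G43610 alone lay far above the rest on every array. The callus and high medium levels were used to pick the members, so they are a description and carry no test. With 1 array for each condition there is no spread between replicates to set a difference against. In RNA of whole cultures, fewer cells of a type and less RNA per cell cannot be told apart.

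**Figure D1:**
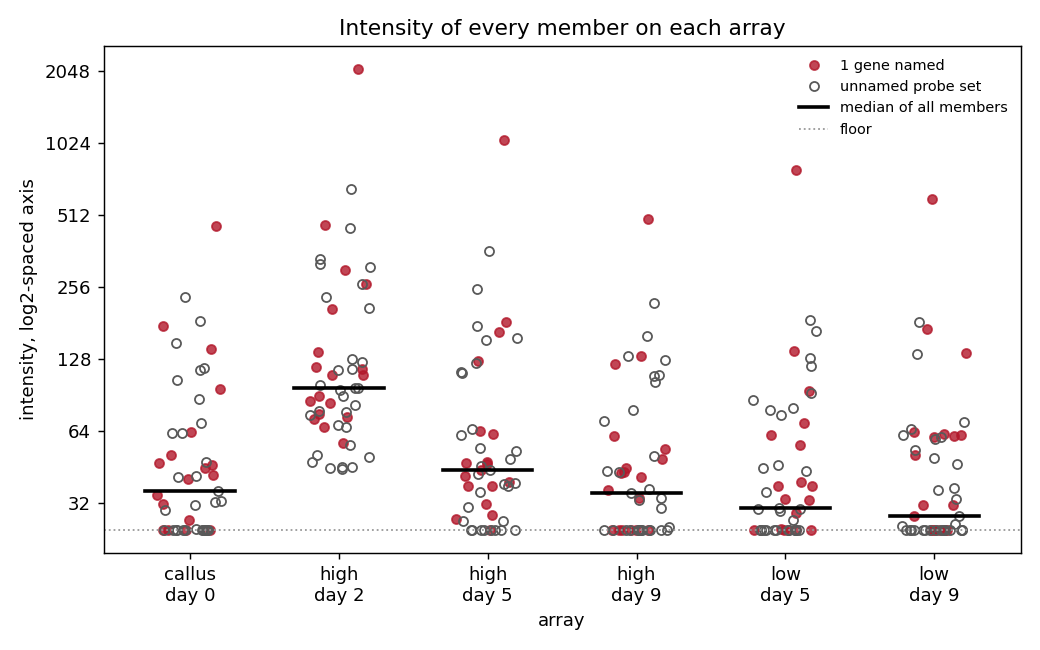
Each point is the intensity of 1 of the 49 members on 1 array, on a log2-spaced axis, with values below the floor of 24.7 drawn at the floor. Filled points have 1 named gene, open points are unnamed probe sets, and bars are medians. The day 2 median of 97.1 stands above those of the other arrays, which are 44.1 or less.

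Against callus, 509 probe sets (2.24% of all) read at least 1.8 times higher at day 2, and 53 of these (10.4%) met the ratio against all 3 arrays, before 4 were left out by name. Every member passed against each of the 3 arrays by construction, where the shares of all probe sets were 2.24% against callus, 1.06% against day 5 and 1.54% against day 9. The members' median log2 ratio of day 2 was 1.22 over callus, 0.99 over day 5 and 1.29 over day 9, beside medians of -0.04, 0.00 and -0.01 over all probe sets with a ratio. The array that came nearest to day 2 was day 5 for 32 members, day 9 for 5 and callus for 4. The remaining 8 members lay at the floor on all 5 other arrays, so their ratios are lower bounds. Intensity was lower at day 5 than at day 2, as the rule requires, and lower still at day 9, for 35 members. Of all probe sets with a ratio of day 9 over day 5 in high medium, 6725 read lower and 7537 higher at day 9. On both later days 22 members, among them the 8 at the floor, lay within 1.2 times of callus. The share of all probe sets within that range was not counted, so nothing is read from this number.

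**Figure D2:**
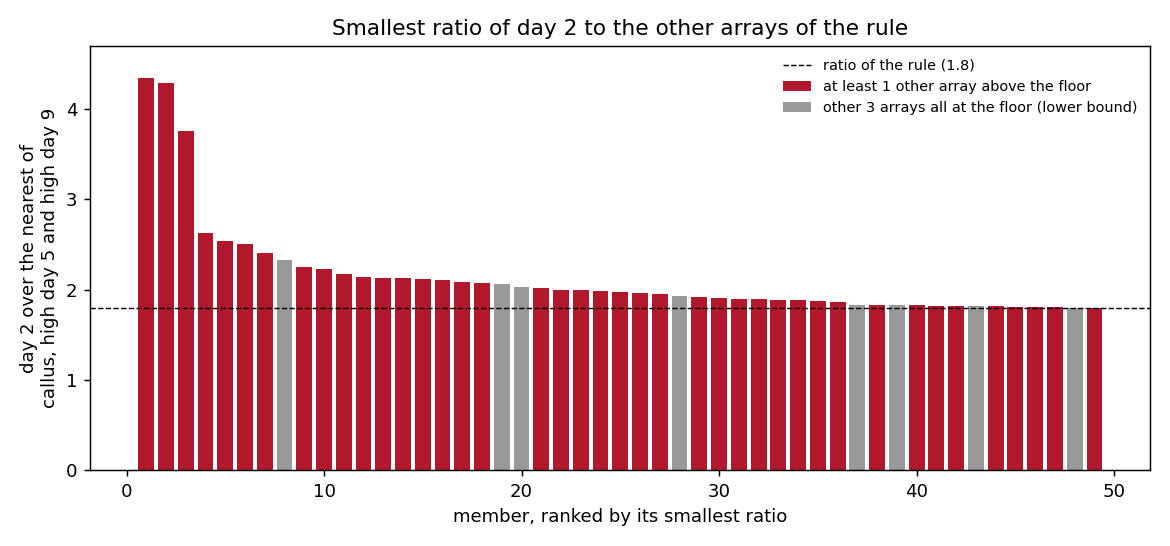
For each of the 49 members in rank order, the bar gives the intensity at day 2 divided by the highest of callus, high medium day 5 and high medium day 9. The dashed line is the ratio of 1.8 that chose the members, and grey bars are lower bounds. The first 3 members reach 3.76 to 4.34, and 21 members reach 2 or more.

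The 2 named members grouped under signalling, AT5G40590 and WAG2, came first and far down in this order. For AT5G40590 the grouping rests on the name of its protein family, and a role in signalling was not tested. AT5G40590, which led the set, encodes a protein of the cysteine- and histidine-rich C1 domain family, a zinc-binding domain. Its intensity was 31.8 in callus, 207 at day 2, 47.6 at day 5 and 19.2 at day 9 in high medium, while low medium gave 29.0 at day 5 and 19.4 at day 9, the order in which its values are given throughout. Day 2 was thus 6.50 times callus and 4.34 times day 5, while both low medium values lay below that of callus. WAG2 encodes a protein kinase of the AGC family that phosphorylates PIN auxin efflux carriers and so takes part in steering auxin flow. It read 51.0 in callus, 117 at day 2, 62.3 at day 5 and 60.9 at day 9 in high medium, and 61.5 and 61.6 in low medium. Apart from day 2, the WAG2 values of the liquid cultures were nearly level, and day 2 was 2.29 times callus and 1.87 times day 5.

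The lectin gene AT1G52070 ranked next to AT5G40590 among the named members. Its product is of the jacalin type, whose members bind sugars such as mannose. It read 13.8 in callus, 119 at day 2, 31.7 at day 5 and 12.5 at day 9 in high medium, and 16.8 and 10.4 in low medium. Callus, day 9 and both low medium arrays were under the floor, so day 2 was at least 4.82 times each of them, and it was 3.76 times day 5. Between AT5G40590 and AT1G52070 in rank stood the unnamed probe set 254828_at, at 17.8 in callus, 116 at day 2, 27.0 at day 5 and 1.8 at day 9, with 2.3 and 3.9 in low medium. The next in rank, the unnamed 250669_at, had a smallest ratio of 2.63, so the first 3 members stood apart from the rest in size.

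Genes grouped under wall or secreted proteins, after the members were seen, made up 6 of the 18 named members. The share of such genes among all named genes was not counted, so nothing is read from this number. AT2G43610, of the chitinase family, whose enzymes cleave N-acetylglucosamine polymers, read 463 in callus, 2095 at day 2, 1059 at day 5 and 495 at day 9 in high medium. In low medium AT2G43610 read 791 at day 5 and 601 at day 9. Day 2 was 4.52 times callus, and AT2G43610 was the only named member whose day 5 reading in high medium was still at least 1.8 times callus with the floor applied, at 2.29 times. For AT1G52070 and AT5G09480, whose callus readings lay below the floor, the same ratio was at least 1.28 and at least 1.79. By day 9 it was at 1.07 times callus.

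AT5G09480, a gene for a hydroxyproline-rich glycoprotein, a class of structural wall protein, lay below the floor in callus and read 110.3 at day 2, 44.1 at day 5 and 17.4 at day 9, with 17.6 and 18.3 in low medium. Only days 2 and 5 in high medium lay above the floor for this gene, and day 2 was at least 4.47 times callus. AT5G38610 belongs to the family of invertase and pectin methylesterase inhibitors, which act on enzymes of sucrose cleavage and of pectin. It read 27.1 in callus, 66.5 at day 2, 27.6 at day 5 and 18.2 at day 9, and 21.2 and 13.6 in low medium. The values other than day 2 thus lay at or just above the floor. AT1G72230, of the copper-binding cupredoxin family, read 57.4 at day 2 and between 3.6 and 20.7 on the other arrays, all below the floor.

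Lipid transfer proteins, small and mostly secreted proteins that carry lipids, were represented by 2 genes that moved unlike each other in low medium. AT2G18370 read 95.9 in callus, 265 at day 2, 126 at day 5 and 123 at day 9 in high medium, and 94.7 and 136 in low medium. AT3G58550 read 34.7 in callus, 73.4 at day 2, 28.5 at day 5 and 36.4 at day 9, and 24.8 and 14.7 in low medium. In low medium the value of AT2G18370 was higher at day 9 than at day 5, by 0.52 on the log2 scale, while that of AT3G58550 was barely above the floor at day 5 and below it at day 9. In high medium both had their highest value at day 2, at 2.77 and 2.12 times callus.

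The 3 named members that encode other enzymes had log2 ratios of day 2 over callus from 1.09 to at least 1.54. AT3G57010, of the strictosidine synthase-like family, read 63.5 in callus, 137 at day 2, 63.9 at day 5 and 33.6 at day 9 in high medium, and 37.7 and 63.4 in low medium. High medium was above low medium at day 5 and below it at day 9 for this gene. AT4G31020, of the alpha/beta hydrolase family, read 142 in callus, 301 at day 2, 166 at day 5 and 132 at day 9, and 139 and 172 in low medium. Its values other than day 2 stayed close together. AT5G62420, of the NADPH-linked aldo-keto reductase family, read 22.8 in callus, 71.8 at day 2, 37.9 at day 5 and 13.8 at day 9, and 24.9 and 28.2 in low medium.

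For the other 6 named members no role is given here. AT1G03820 was the brightest of them, at 176 in callus, 467 at day 2, 184 at day 5 and 54.2 at day 9 in high medium, and 69.6 and 62.1 in low medium. It passed its starting level on the way down: day 5 was 1.05 times callus and day 9 was 0.309 times callus, the lowest such ratio of any member with the floor applied. AT1G58070 read 44.9 in callus, 110.4 at day 2, 37.9 at day 5 and 49.0 at day 9, and 33.0 and 31.6 in low medium. AT5G59360 read 40.4, 83.8, 39.2 and 42.9 in callus and over the high medium series, and low medium gave 33.3 and 61.0. The low medium value of AT5G59360 at day 9 was thus the nearest to its day 2 peak, which was 1.37 times as high.

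AT3G14750 read 47.1 in callus, 90.2 at day 2, 46.7 at day 5 and 43.4 at day 9 in high medium, and 56.1 and 60.3 in low medium. AT5G66440 read 46.1, 85.6, 47.1 and 45.0 in the same order, and 37.9 and 31.6 in low medium. For both, callus and the later high medium arrays lay within 4 intensity units of each other, and low medium lay above them for AT3G14750 and below them for AT5G66440. AT1G09290 was the last of the set, at 41.9, 75.5, 41.4 and 41.2 in callus and over the high medium series, and low medium gave 39.2 and 50.8.

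**Figure D3:**
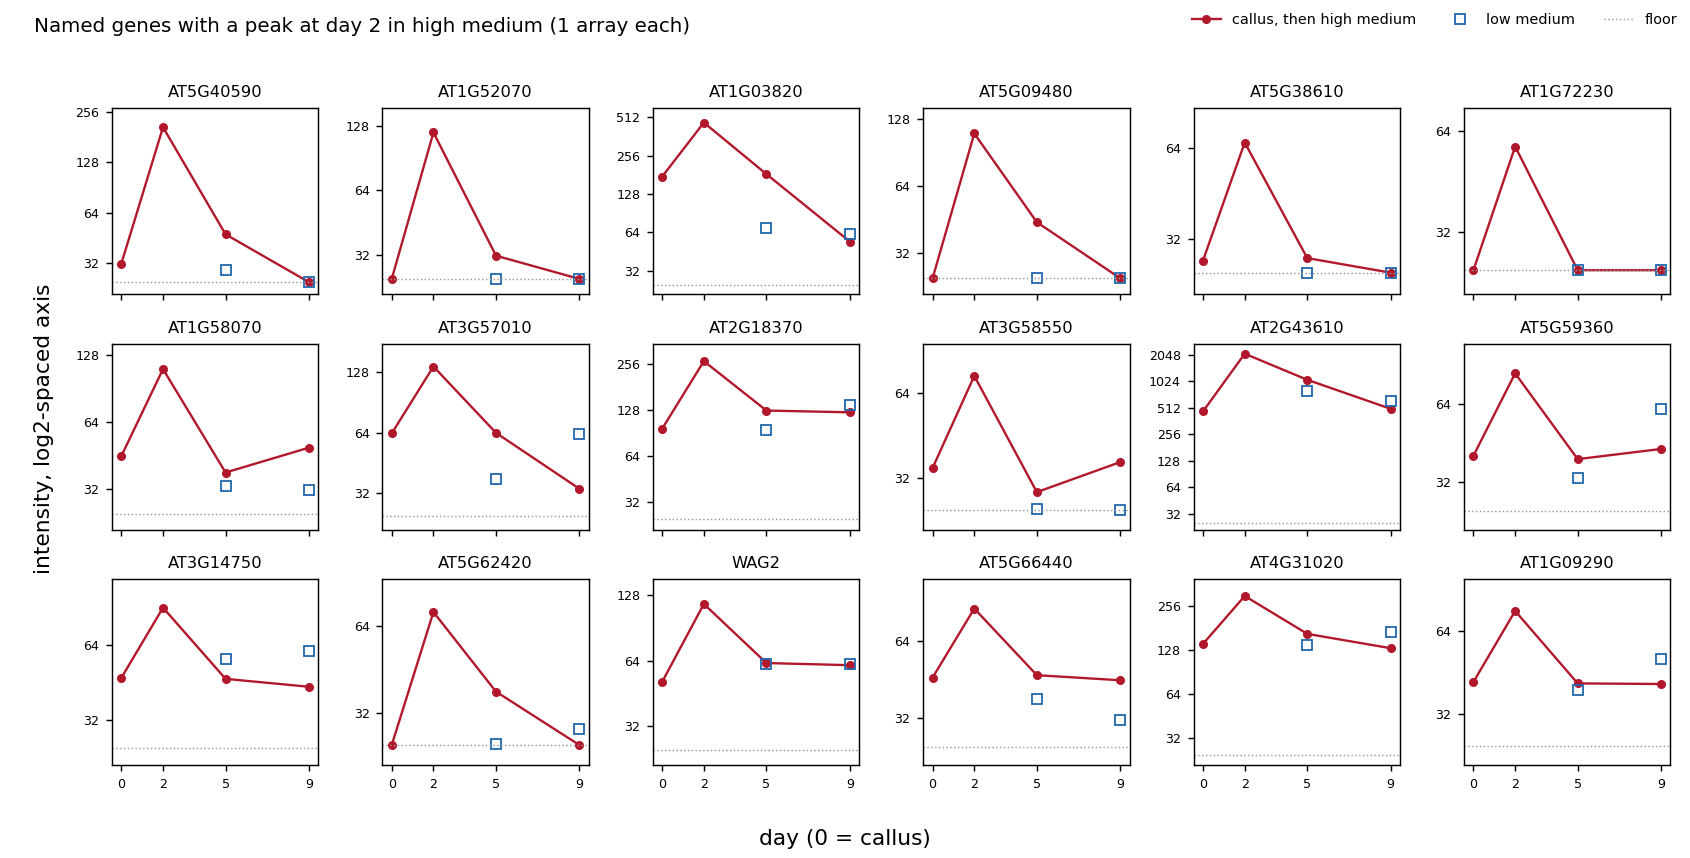
One panel for each of the 18 named members, ordered by rank, with intensity on a log2-spaced axis against day. Filled circles joined by a line are callus at day 0 and high medium at days 2, 5 and 9, open squares are low medium at days 5 and 9, and the dotted line is the floor of 24.7. Every panel peaks at day 2, as the choice of members requires, while the squares lie below the line in some panels, such as AT1G58070 and AT5G66440, and above it in others, such as AT3G14750.

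At the edge of the rule, AT1G09290 and the unnamed 260430_at had a smallest ratio of 1.802, and the unnamed 250770_at had 1.808. Just outside lay AT3G52900 at 1.798, AT1G04680 at 1.797 and AT1G68670 at 1.783. AT1G04680, of the pectin lyase-like superfamily, read 104.5 in callus, 438 at day 2, 244 at day 5 and 63.4 at day 9, so its peak was as tall as that of many members and day 5 alone kept it out. All 8 members with every other array at the floor had day 2 readings between 44.5 and 57.4. A reading of 44.5 is the smallest that can pass over a floor of 24.7, so these 8 members rest on 1 dim reading each.

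The low medium arrays took no part in the choice of members. In each of the 49, day 2 in high medium was the highest of the 6 arrays, where it was for 10.6% of all probe sets, and in 40 it was at least 1.8 times both low medium arrays, where 1.29% of all probe sets were. The day 2 value itself had been chosen as high, so nothing is read from the distance to these shares. Both low medium arrays lay at the floor for 17 members (34.7%), against 36.9% of all probe sets. With each array counted by itself, 34.7% of members lay there at day 5 and 42.9% at day 9. The shares of all probe sets were 38.9% and 40.6%. The named ones among the 17 were AT1G52070, AT5G09480, AT5G38610 and AT1G72230.

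The comparison of day 9 with day 5 in low medium shares no array with the rule. At least 1.8 times higher at day 9 was 1 member, AT5G59360, at a log2 ratio of 0.87, where 0.352% of all probe sets were. At least 1.8 times lower were 2 members, the unnamed 262796_at at -1.02 and 253191_at at -0.90, where 0.752% of all probe sets were. Over the 32 members with a ratio the median was -0.23 on the log2 scale, with 22 lower and 10 higher. Over all probe sets with a ratio it was 0.01, with 7038 lower and 7277 higher. Over the 14 named members with a ratio it was 0.05. Scan background in low medium was 82.04 at day 9 and 105.48 at day 5, and only the day 5 array exceeded 82.04 among the 6. Whether background had a part in this difference was not tested.

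High medium was next set against low medium at matched days, where the high medium arrays are 2 of those that the rule held below day 2. At day 5, 6 members were at least 1.8 times higher in high medium, against 1.15% of all probe sets, and 0 were lower by that size, against 0.787%. At day 9, 5 members were higher, against 0.418%, and 2 lower, against 0.286%. The median log2 ratio of high over low medium was 0.39 over 40 members at day 5 and 0.10 over 33 members at day 9, beside -0.03 and -0.01 over all probe sets with a ratio. At day 5, 34 members read higher and 6 lower in high medium, and at day 9, 18 read higher and 15 lower. Of all probe sets with a ratio, 6597 read higher and 7827 lower at day 5, and 6882 higher and 7154 lower at day 9. Among named members the balance at day 9 lay the other way, with 3 higher and 10 lower.

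Both days were at least 1.8 times higher in high medium for 4 members, against 0.145% of all probe sets, and all 4 are unnamed. Their smallest ratios in the rule ran from 1.813 to 1.991, so none of them is a member at a ratio of 2. The probe set 253191_at read 186 in callus and 659, 363 and 219.5 over the 3 high medium arrays, against 129.7 and 69.7 in low medium. The probe set 262796_at read 234 in callus and 455, 251 and 159.9 in high medium, against 120.4 and 59.3 in low medium. These 2 were also the members that were lower at day 9 than at day 5 in low medium. The probe set 254618_at read 117 in callus and 336, 176 and 132 in high medium, against 86.4 and 60.6 in low medium. The probe set 249070_at read 105.1 in callus and 313, 157 and 110.3 in high medium, against 78.6 and 53.4 in low medium. In all 4 both low medium readings lay below callus. At day 5 high medium was 1.96, 1.07, 1.5 and 1.49 times callus in the order given. The log2 ratio of low medium over callus was then -0.52, -0.96, -0.44 and -0.42.

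At day 5 the other 2 members higher in high medium were AT1G03820, at a log2 ratio of 1.40, and the unnamed 252971_at, at a log2 ratio of at least 1.14. At day 9 the fifth was the unnamed 246425_at, at 1.06. The 2 members lower in high medium at day 9 were AT3G57010, at -0.92, and the unnamed 252003_at, which lay at the floor in high medium and read 46.6 in low medium. WAG2 differed least among named members with a ratio on both days, at log2 ratios of 0.02 and -0.02.

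**Figure D4:**
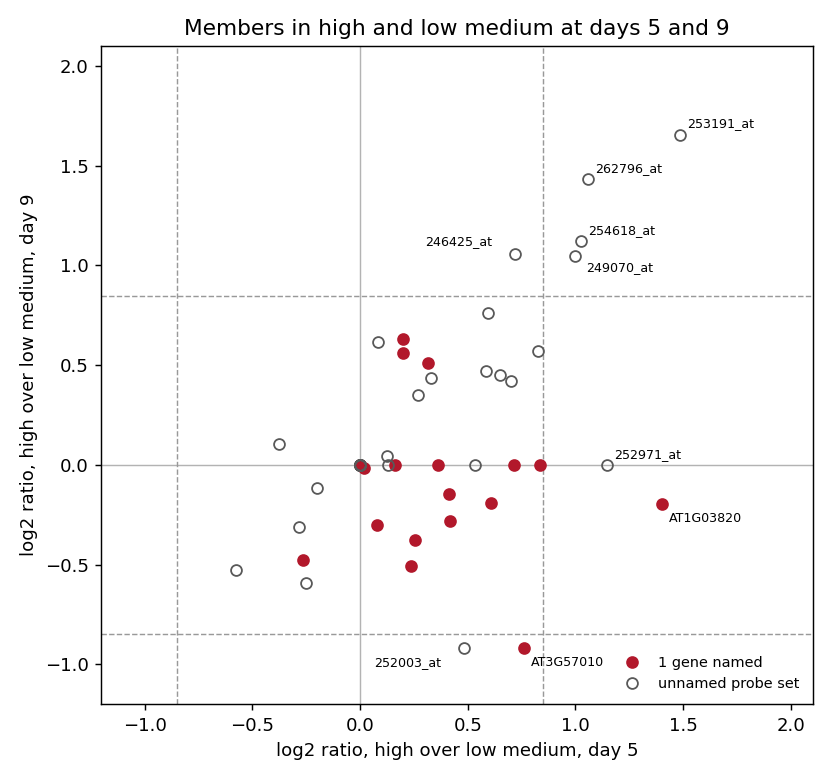
Each point is 1 member, placed by its log2 ratio of high over low medium at day 5 (horizontal) and day 9 (vertical); pairs of readings at the floor are drawn at 0, and dashed lines mark a ratio of 1.8 in either direction. The 4 members in the upper right corner, led by 253191_at, were higher in high medium on both days. AT3G57010 and 252003_at lie at the bottom, lower in high medium at day 9, by a log2 ratio of -0.92 and of at most that value.

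Against callus, low medium at day 5 was at least 1.8 times higher for 1 member, where 3.03% of all probe sets were, and lower by that size for 3, where 3.72% were. At day 9 the counts were 1 higher, against 1.89%, and 6 lower, against 2.48%. These comparisons share the callus array with the rule and with each other, so the values stand side by side only. AT1G03820 was lower on both days, at log2 ratios of -1.34 and -1.50, as were 262796_at, at -0.96 and -1.98, and 252971_at, at most -0.94 on each. The probe sets 253191_at, 249070_at and 254618_at were lower at day 9. The 2 that were higher were 267058_at at day 5, at a log2 ratio of 0.86, and 252003_at at day 9, at a log2 ratio of at least 0.92. Both low medium readings lay below callus for 19 members (38.8%), where 27.2% of all probe sets did, and above it for 9 (18.4%), where 23.6% did.

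All 49 members are probe sets of the kind made for a single transcript, which make up 95.3% of all probe sets, so this kind does not set them apart. Named members lie on all 5 nuclear chromosomes, with 5 genes on chromosome 1, 2 on chromosome 2, 4 on chromosome 3, 1 on chromosome 4 and 6 on chromosome 5. The 2 closest, WAG2 and AT3G14750, are 52 annotated genes apart in the order of assembly TAIR10.1, so no named members are neighbours. The profile of each member over the 6 arrays correlated with the mean of the other members at r from 0.637, for the unnamed 250051_at, to 0.994, for AT5G40590. These correlations share the high day 2 reading by which the members were picked.

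Among the 8457 named probe sets outside the set that rose above the floor on any array, the 5 most like the members' mean over the 6 arrays were AT2G24230 (r = 0.997), AT2G21195 (0.995), FIS1B (0.990), AT3G11470 (0.990) and AT3G01740 (0.989). The peaks of AT2G24230, AT2G21195, FIS1B and AT3G01740 were smaller than the members' median of 2.32 times callus, at 1.84 times or less. For AT3G11470 day 2 was at least 1.26 times callus, which lay below the floor. Its only readings above the floor were 31.1 at day 2 and 25.5 at day 5 in high medium, so its correlation rests on dim readings. The probe set of AT3G11470 is of the kind shared by several transcripts. AT2G24230 read 26.4 in callus, 48.5 at day 2, 29.2 at day 5 and 17.4 at day 9, and 13.9 and 19.0 in low medium. FIS1B, which takes part in the fission of mitochondria and peroxisomes, read 123 in callus, 178.5 at day 2, 128 at day 5 and 124 at day 9, and 118 and 112 in low medium, so day 2 was 1.45 times callus. Each of these correlations rests on 6 points, of which day 2 is the high one.

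Of the 246 genes of the pathway and marker lists, 40 are paired with a probe set here and 0 met the ratio against all 3 arrays, where 22 of 13286 named genes did, the 4 left out by name included. IRX15-L, of xylan synthesis in the secondary wall, came close, at 36.3 in callus, 61.8 at day 2, 30.0 at day 5 and 25.9 at day 9, and 23.1 and 10.2 in low medium. It is 1 of 4 measured genes among the 19 of the secondary wall list. The other 3, GUT2 (IRX10), GUT1 (IRX10-L) and IRX15, of the same pathway, also had their highest reading at day 2. Day 2 was the highest of the 6 arrays for 10.6% of all probe sets. Over the 4 genes the median log2 ratio of day 2 was 0.45 over callus, at least 0.63 over day 5 and at least 0.66 over day 9. The bounds arise from IRX15, which read 39.9 at day 2 and lay below the floor on days 5 and 9, at 18.4 and 20.6. Of these 4, 0 were at least 1.8 times callus, and 1, IRX15-L, was at least 1.8 times days 5 and 9 with the floor applied. Over all 13286 named genes the 3 medians were 0.00, but these count pairs with both readings at the floor as 0. Only 8346 of these genes rose above the floor on 1 or more arrays. Over all probe sets with a ratio the 3 medians were -0.04, 0.00 and -0.01.

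Of the other lists, expansins, which loosen the wall, had 12 measured genes, of which 7 rose above the floor on 1 or more arrays. At day 2, 2 were at least 1.8 times callus and 2 were lower by that size. Of all 13286 named genes, 259 (1.95%) were higher and 271 (2.04%) lower in that comparison. For day 2 over day 5, 114 named genes were higher and 157 lower, and over day 9, 160 higher and 149 lower. EXPA15 read 75.6 in callus, 152.5 at day 2, 105.0 at day 5 and 93.3 at day 9, and EXPB3 read 28.4, 60.3, 52.5 and 24.6. EXPA9 and EXLA1 were lower at day 2, at log2 ratios of -1.56 and -1.14 over callus. Over day 5, 1 expansin was higher at day 2 and 1 lower, and over day 9, 2 were higher and 1 lower. EXPA8 was higher over both, at 68.0 in callus, 90.6 at day 2, and 24.2 and 11.8, below the floor, at days 5 and 9. The 8 measured auxin genes had a median log2 ratio of day 2 of -0.43 over callus, -0.15 over day 5 and -0.68 over day 9. These medians count LBD29, which lay below the floor on every array, as 0. Of these 8 genes, 0 were higher and 1, GH3.1, which encodes an auxin-conjugating enzyme, was lower at day 2 than in callus, at -0.89. Over day 9, 2 were higher by that size at day 2, IAA20 and IAA30. The 3 lower were GH3.1, WES1 and IAA29, whose day 2 reading lay below the floor. Of 4 lignin genes 1 was lower at day 2 than in callus, HCT, an enzyme of the monolignol pathway, at -1.40. The 2 measured xylem transcription factors, the 1 xylem cell death gene, the 3 cell cycle genes, the 1 gene of primary wall cellulose and the 1 cytokinin gene, RR16, had 0 in either direction, and RR16 lay below the floor on all arrays. The lists were counted without the genes left out by name, among them the cytokinin response regulator ARR15, which read 16.3 in callus, 65.0 at day 2, 37.8 at day 5 and 22.0 at day 9, so that its day 2 was at least 2.63 times callus and 1.72 times day 5. Fasciclin-like proteins, sugar starvation and root markers had 0 measured genes. Of the marker lists for other cells, phloem, epidermis, shoot meristem and green leaf cells had 1 measured gene each, and 0 of the 4 passed in either direction. The phloem gene OPS read 66.0 at day 2, against 40.4 in callus, the leaf gene LHCB4.1 read 51.0 at day 2, against 50.0 in callus, and the epidermis and meristem genes lay below the floor on every array.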

How the data were processed

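The 6 cultures were read on 1-colour ATH1 arrays, and each group, named from the samples' source names, has 1 array. The authors deposited linear intensities for 22810 probe sets. Their summary and scaling software is not stated in the labels used here. Their mean after trimming 2% at each end ran from 99.2 to 99.4 over the arrays, so the scaling was kept. The 64 control probe sets were left out, and values were raised to 24.7, the middle of the arrays' 40th percentiles, before ratios and log2 were taken. Between 59.3% and 61.1% of probe sets lay above this floor. Where 1 of the arrays is at the floor the ratio is a bound, and no ratio is given where both lie there. GAPDH control probe sets gave a 3′ to 5′ signal ratio of 0.9 in callus, 1.08 at day 2 and up to 1.21 elsewhere. The number of arrays limits the precision.

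Of the 22746 other probe sets, 13513 have 1 gene in the platform annotation, 503 several and 8730 none, and names were updated by gene identifier through the RefSeq table of TAIR10.1. For list genes the probe set with the highest mean was used. All 18 members with 1 gene were named, which is what the rule of naming the first 25 by smallest ratio gives. The members and lists were chosen with earlier results of these data known. Role groups were assigned after the members were seen. A rule of size was used in place of a test, since each group has 1 array. The planned description of promoter motifs was not run. The calculation was tested on simulated data. Alternatives were 2 other floors, 2 other scalings, 3 other ratios, all probe sets of a gene, and the genes left out put back. Python 3.11.15, numpy 2.4.6, pandas 2.3.3 and matplotlib 3.10.9 were used.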

Additional observations from a re-analysis of the deposited data

Results flagged for a closer look

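AT3G57010 had opposite differences between the media on the 2 days. Its log2 ratio of high over low medium was 0.76 at day 5 and -0.92 at day 9, each at least 1.5 times in size, and the difference between the days was not tested. Day 5 gave 63.9 in high against 37.7 in low medium, and day 9 gave 33.6 in high against 63.4 in low medium.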

How the results depend on the processing

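The number of members depended on the floor and on the ratio, while all members had their peak at day 2 by choice. With a floor at the 20th percentile there were 99 members, 54 of them named, 73 at least 1.8 times both low medium arrays, 5 higher and 5 lower at day 9 than at day 5 in low medium, 15 higher and 8 lower in high than in low medium at day 5, and 12 higher and 6 lower at day 9. Raising the floor to the 60th percentile left 17 members, 7 of them named, 13 at least 1.8 times both low medium arrays, 0 higher at day 9 than at day 5 in low medium, and 3 higher and 0 lower in high than in low medium at day 9. With a ratio of 1.5 there were 133 members (65 named; 84 above both low medium arrays; 4 lower at day 9 than at day 5 in low medium; 15 higher in high medium at day 5; 12 higher and 4 lower at day 9). With a ratio of 2 there were 21 (10 named; 19 above both low medium arrays; 0 higher and 0 lower at day 9 than at day 5 in low medium; 1 above low medium at day 5 and 0 at day 9). With a ratio of 2.5 there were 6 (4 named; 6 above both low medium arrays; 0 higher and 0 lower at day 9 than at day 5 in low medium; 1 higher in high medium at day 5; 0 higher and 0 lower at day 9). Array medians made equal gave 58 members, among them the 49, with 10 higher in high medium at day 5, and made IRX15-L a member, at a smallest log2 ratio of 0.86 against 0.77. Quantile scaling gave 51, of which 46 were shared, and 1 was lower at day 9 than at day 5 in low medium. With the genes left out put back there were 53. The median log2 ratio over members ran from 0.28 to 0.71 for high over low medium at day 5, from -0.05 to 0.42 at day 9, and from -0.30 to -0.06 for day 9 over day 5 in low medium. Of the 18 named members, 6 passed under all 4 other floors and scalings and 12 under 3, and 11 fell below the ratio with a floor at the 60th percentile. Using all probe sets of a gene was run for the gene lists only, where 0 genes met the ratio in either case, and was not run for the other counts, which already use every probe set.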
